A study of Oryza sativa with 12 samples.

Results

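The growth of the young wild-type rice panicle was followed here as the difference between 2 panicle lengths, in 6 of the 12 Affymetrix rice arrays of a study of OsMADS1 and flower development. Members were chosen by their labels: 3 arrays of wild-type panicles of 2 mm and 3 of wild-type panicles of 5-7 mm, each array a biological repeat. The other 6 arrays held panicles of the osmads1 mutant at the same lengths. All plants grew in a paddy field with no special treatment, and the labels used here give neither the cultivar, the mutant allele nor the time of day of harvest. Per the labels, inner floral organs are being initiated in the shorter panicles, and organ development is late in the longer ones. A sample is thus a whole young panicle, a mixture of branches, spikelets and florets. In such bulk samples a lower level can come from fewer cells of a type or from less RNA per cell, and these cannot be told apart.

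A rice panicle first makes branches from axillary meristems, and each branch then ends in spikelets that carry 1 floret. Branch and spikelet meristems are set by LAX1, FZP and RFL, and KNOX genes keep meristem cells undifferentiated. Within the floret, MADS-box transcription factors act in combinations: A class genes in meristem transition and outer organs, B class in lodicules and stamens, C class in stamens and carpels, D class in ovules, and E class as partners of all of them. Later come anther wall differentiation, the entry of germ cells into meiosis, and cell expansion.

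Levels are log2 units after quantile normalization of the 12 arrays together, since the deposited values of the lengths lie on different scales, with array medians of 4.10 to 4.13 at 2 mm and 4.93 to 5.00 at 5-7 mm. Differences are 5-7 mm minus 2 mm ± SE, and "rose" or "fell" is used for a Benjamini-Hochberg adjusted p under 0.05 from limma. Of 57194 probe sets, 28765 (50.3 percent) passed, 15207 of them higher (26.6 percent) and 13558 lower (23.7 percent) at 5-7 mm. With a change of at least 2-fold required as well, 3440 passed (6.01 percent), 1542 higher (2.7 percent) and 1898 lower (3.32 percent), and this set is used below to tell large changes from the many small ones. Over the 17905 genes with 1 representative probe set each, 30.2 percent rose and 27.1 percent fell, 3.04 percent rose and 3.14 percent fell by at least 2-fold, and the median difference was 0.02. Counts of list members below are to be read against these shares. The arrays of the lengths did not overlap for 69.2 percent of these genes, so that a lack of overlap alone is common. Arrays of a length correlated at 0.9953 to 0.9974 and arrays of different lengths at 0.9634 to 0.9695.

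Signs of RNA and labelling differed between the lengths, and length cannot be told apart from the way each length was processed. Of 187 control probe sets, 74 (39.6 percent) passed in a fit of their own. All 5 rice ribosomal RNA controls were lower at 5-7 mm, by 1.61 to 5.96 log2 units, and their means in osmads1 differed by -0.87 to -6.13. Of 36 probe sets for the Bacillus transcripts that serve as labelling controls, 22 were lower and 4 higher, with a median of -0.68, while 27 for the hybridization spikes had a median of -0.22. The gap between the 3' and 5' probe sets of actin was 4.99 ± 0.16 (SD, n = 3) at 2 mm and 3.06 ± 0.037 at 5-7 mm, and that of GAPDH was 3.50 ± 0.031 and 2.15 ± 0.17. Neither gap overlapped between the lengths. The part of these differences in the results below was not tested. The 64 reporter controls, for reporter genes foreign to rice, had a median difference of -0.01, and their upper quartile (3.59 at 2 mm and 3.62 at 5-7 mm) serves as a floor: where the dimmer length lies under it, a fold is given as a lower bound.

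Scaling decides the direction of small changes and the number of large ones. The median difference over all probe sets was 0.020 here, 0.61 with the deposited values, -0.26 with median centring and 0.23 with centring on hybridization spikes. Over genes with 1 probe set each, 81.9 percent rose and 4.45 percent fell with the deposited values. These shares were 17.1 and 49.0 percent with median centring and 35.3 and 7.85 percent with spike centring. List counts given below for another scaling are to be read against them. Past 2-fold there were 3440 probe sets here (1542 higher, 1898 lower), 13632 with the deposited values (12861 and 771), 6539 with median centring (1065 and 5474) and 5672 with spike centring (4449 and 1223). Of the 3440, which were chosen as large under the scaling used here, 3278 had an adjusted p under 0.05 in the same direction, at any size, under all of these and with ranks within arrays, and the ranks of the lengths did not overlap for 3428, against 60.2 percent of all probe sets. Of 36 gene lists, 7 kept the sign of their median under each of the 4 scalings: B class, C and D class and E class MADS genes, the TCP, YABBY and homeobox lists (higher), and the meristem list (lower). For every other list the sign of the median itself depends on the scaling, and its counts are given below as description. Against the median of all genes some of these lists kept a sign, such as heat shock (-0.19 here, -0.14 with the 3 other scalings) and DNA replication (-0.16 and -0.17). Others did not, such as anther wall and tapetum (0.09 and -0.07). Those 3 scalings shift whole arrays, so that they give the same value by construction.

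Most floral organ identity genes rose. Of the 18 MADS-box genes of the A to E classes that the array measured, 12 rose, 3 fell and 3 were not called, with a median of 0.78 against 0.02 over all genes, and 7 rose by at least 2-fold. With the deposited values 16 rose and 1 fell (88.9 and 5.56 percent), shares near the 81.9 and 4.45 percent of all genes. With median centring 10 rose and 5 fell (55.6 and 27.8 percent, against 17.1 and 49.0 percent of all genes).

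The 3 B class genes all rose. OsMADS16, the rice APETALA3 homologue needed for lodicules and stamens, read 8.56, 9.00 and 8.80 at 2 mm and 10.63, 10.58 and 10.92 at 5-7 mm. All 3 longer panicles lay above all 3 shorter ones, by 1.92 ± 0.18 (3.79-fold, adjusted p = 4e-06). OsMADS4, a PISTILLATA homologue, rose from 7.47, 8.01 and 7.87 to 9.08, 9.19 and 9.40 (2.71-fold). Its paralogue OsMADS2 started higher, at 9.85 to 9.98, and rose by 0.73 ± 0.089 to 10.53 to 10.75.

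The 4 C and D class genes were also called higher. OsMADS58, a C class gene of carpels and floret meristem closure, read 5.65, 6.51 and 5.94 at 2 mm and 8.51, 8.78 and 8.98 at 5-7 mm, with no overlap and a rise of 2.72 ± 0.22 (6.61-fold, adjusted p = 9.87e-07). OsMADS3, the other C class gene, known mainly from stamens, rose from 3.75, 4.17 and 4.33 to 5.72, 5.32 and 5.72 (2.83-fold). The ovule gene OsMADS13 read 3.17, 2.79 and 2.99 at 2 mm, within the range of the reporter controls, and 4.92, 4.76 and 4.91 at 5-7 mm. Its rise was therefore at least 2.42-fold (adjusted p = 5.12e-08). OsMADS21, its paralogue, stayed within the reporter range at both lengths, at 2.12 to 2.24 and 2.63 to 2.77, and no fold is given. With median centring its sign turned (-0.35).

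Of the 7 E class and AGL6-like genes 4 rose and 3 were not called. OsMADS7, a SEPALLATA3-like partner of B and C class proteins, read 8.60, 9.28 and 9.24 at 2 mm and 11.00, 10.82 and 11.25 at 5-7 mm (3.96-fold, adjusted p = 8.7e-06). OsMADS8, its close relative, rose by 1.17 ± 0.16, and the AGL6-like genes OsMADS6 and OsMADS17 by 0.83 ± 0.093 and 0.98 ± 0.12. None of these 4 overlapped between the lengths. The other E class genes were already high at 2 mm and were not called: OsMADS1 itself read 10.84 to 11.19 and then 11.26 to 11.35 (difference 0.23 ± 0.29, adjusted p = 0.542), OsMADS5 differed by 0.13 ± 0.099 and OsMADS34 by -0.12 ± 0.11. The SE of OsMADS1 is large because the fit shares 1 estimate of spread over all 4 groups, and its arrays in the mutant scatter more than in wild type.

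Of the 4 A class genes 3 fell and 1 rose. OsMADS14, which acts with its relatives in the switch to inflorescence meristem, read 11.66, 11.58 and 11.68 at 2 mm and 10.64, 10.61 and 10.51 at 5-7 mm, a fall of 1.05 ± 0.079 (2.08-fold, adjusted p = 5.19e-07) that its 3 other probe sets shared. OsMADS15 and OsMADS18 differed by -0.32 ± 0.076 and -0.20 ± 0.073, falls that became 0.16 and 0.30 with the deposited values, and the call of OsMADS18 was also lost without single arrays. Both remained among the brightest 2 percent of probe sets at both lengths. OsMADS20 was called higher, from 3.13, 3.36 and 2.65, within the reporter range, to 3.63, 3.76 and 3.74, at least 1.09-fold (adjusted p = 0.00504), but not with median centring. Of 13 MADS-box genes outside the floral classes 2 rose and 3 fell (15.4 and 23.1 percent, against 30.2 and 27.1 percent of all genes). The SVP-like OsMADS55 fell 3.03-fold, from 8.79, 7.82 and 8.37 to 6.71, 6.78 and 6.69. OsMADS26, an AGL12-like gene, rose 3.56-fold, from 4.01, 3.88 and 3.55 to 5.82, 5.47 and 5.64.

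**Figure D1:**
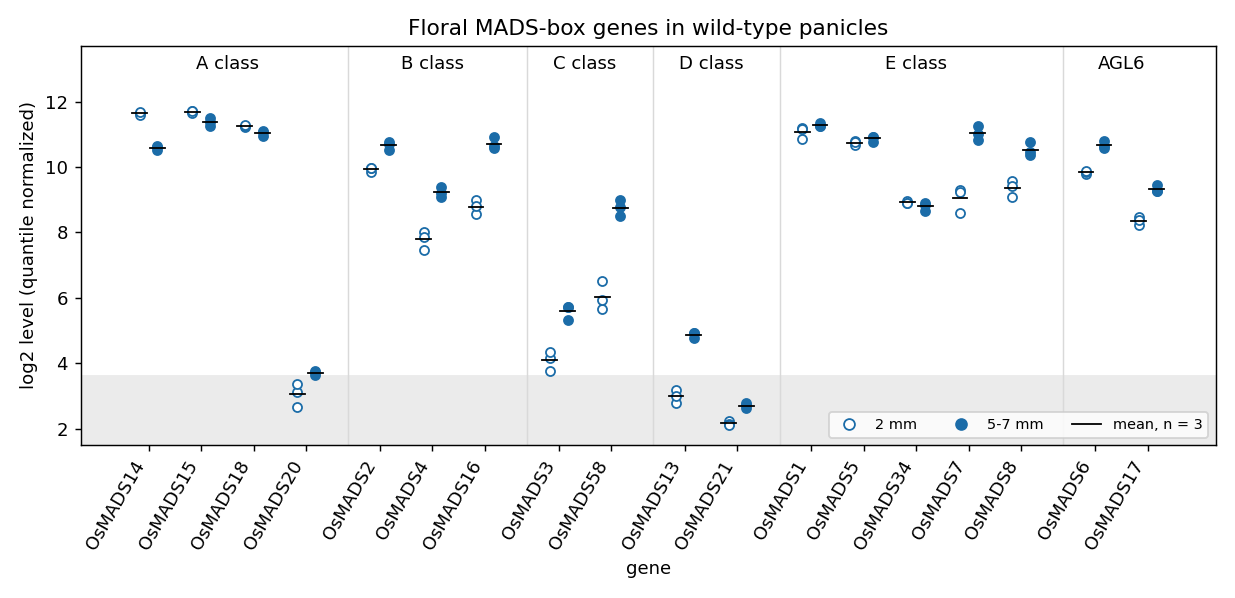
Log2 level (quantile normalized, vertical axis) of 18 floral MADS-box genes in each of the 6 wild-type arrays, open circles for 2 mm and filled circles for 5-7 mm, with a short line at each mean of 3 arrays; the shaded band is the range under the upper quartile of the reporter controls. B class genes, OsMADS58, OsMADS3, OsMADS13, OsMADS7 and OsMADS8 lie clearly higher at 5-7 mm, OsMADS14 lies lower, and OsMADS1, OsMADS5 and OsMADS34 lie at nearly the same height at both lengths.

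Genes of branch and spikelet meristems moved the other way. Of 5 measured, 3 fell by at least 2-fold, none rose, and the median was -1.24. LAX1, a bHLH factor that starts axillary meristems, read 9.06, 9.17 and 9.19 at 2 mm and 7.54, 7.67 and 7.16 at 5-7 mm, a fall of 1.68 ± 0.14 (3.20-fold, adjusted p = 1.46e-06). FZP, an ERF factor that gives spikelet meristems their identity, fell from 5.32, 5.55 and 5.39 to 3.24, 3.45 and 3.05, which lies under the floor, so that its fall was at least 3.49-fold. RFL, the LEAFY homologue, fell 2.36-fold from 10.94, 10.94 and 10.99 to 9.74, 9.80 and 9.62. The receptor kinase gene FON1, which limits floret meristem size, differed by -0.18 ± 0.095, and LOG, which makes active cytokinin in the meristem tip, by 0.06 ± 0.13, neither called.

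KNOX genes did not share 1 direction: 3 of 9 rose and 3 fell, none by 2-fold. These shares (33.3 percent each) lie near the 30.2 and 27.1 percent of all genes. OSH1, the main meristem KNOX gene, stayed among the brightest 2 percent of probe sets and differed by -0.17 ± 0.073 (adjusted p = 0.0650). OSH71 fell most, from 9.74 to 9.84 down to 8.77 to 8.87 (1.97-fold). Among the 11 SPL genes 4 rose and 3 fell (36.4 and 27.3 percent, also near the shares of all genes). OsSPL14, which promotes panicle branching, fell 3.03-fold from 11.02, 10.94 and 10.93 to 9.57, 9.24 and 9.30 (adjusted p = 4.89e-08), and OsLG1, known for the ligule and for panicle form, fell 2.56-fold. SPL16, which controls grain width, went up from 5.41, 5.30 and 5.26 to 8.05, 8.04 and 8.07, a rise of 2.73 ± 0.15 (6.64-fold, adjusted p = 4.30e-08). In all 3 of these SPL genes the arrays of a length lay within 0.33 of each other.

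Regulators of lateral organ growth rose with the floral organ genes. Of 8 YABBY and related genes, 6 rose, 4 by at least 2-fold, and 1 fell within the reporter range, with a median of 0.79. OsYABBY1, which marks lateral organ primordia, read 9.63, 10.13 and 9.74 at 2 mm and 12.32, 12.32 and 12.10 at 5-7 mm (5.31-fold, adjusted p = 1.58e-06), and its second probe set was called the same way. OsJAG, a zinc finger factor needed for the growth and identity of floral organs, rose from 5.17, 5.51 and 5.21 to 7.63, 7.77 and 7.72 (5.32-fold). DL, the YABBY gene of carpel identity, rose 2.67-fold, from 6.60, 6.87 and 6.89 to 8.22, 8.11 and 8.26.

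TCP factors, which set the balance of proliferation and differentiation in organs, had the highest median of the lists outside the MADS genes, 1.10, with 6 of 7 higher and 4 past 2-fold. PCF5 rose from 6.33, 6.18 and 6.02 to 8.81, 9.07 and 9.11 (7.06-fold, adjusted p = 2.21e-06). PCF8 rose 4.06-fold and PCF7 2.72-fold, and PCF6 2.14-fold, all without overlap. These 4 belong to the microRNA-regulated CIN branch of the family. PCF1, of the other branch, differed by -0.03 ± 0.074. GRF growth regulators, which promote proliferation, changed little: 3 of 10 rose and 6 fell, none by 2-fold, a split that became 6 against 1 with the deposited values. OsGRF10 fell most, by 0.84 ± 0.074.

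Homeobox genes of the HD-ZIP and WOX families had a median of 0.27, with 20 of 40 higher and 7 lower (50.0 and 17.5 percent, against 30.2 and 27.1 percent of all genes). With median centring the counts were 13 and 13 (32.5 percent each, against 17.1 and 49.0 percent of all genes) and the median 0.08. HOX12, an HD-ZIP gene known from panicle exsertion, rose 3.07-fold from 7.95, 8.26 and 8.12 to 9.85, 9.60 and 9.74. Roc4, a factor of the epidermis, fell 2.06-fold.

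**Figure D2:**
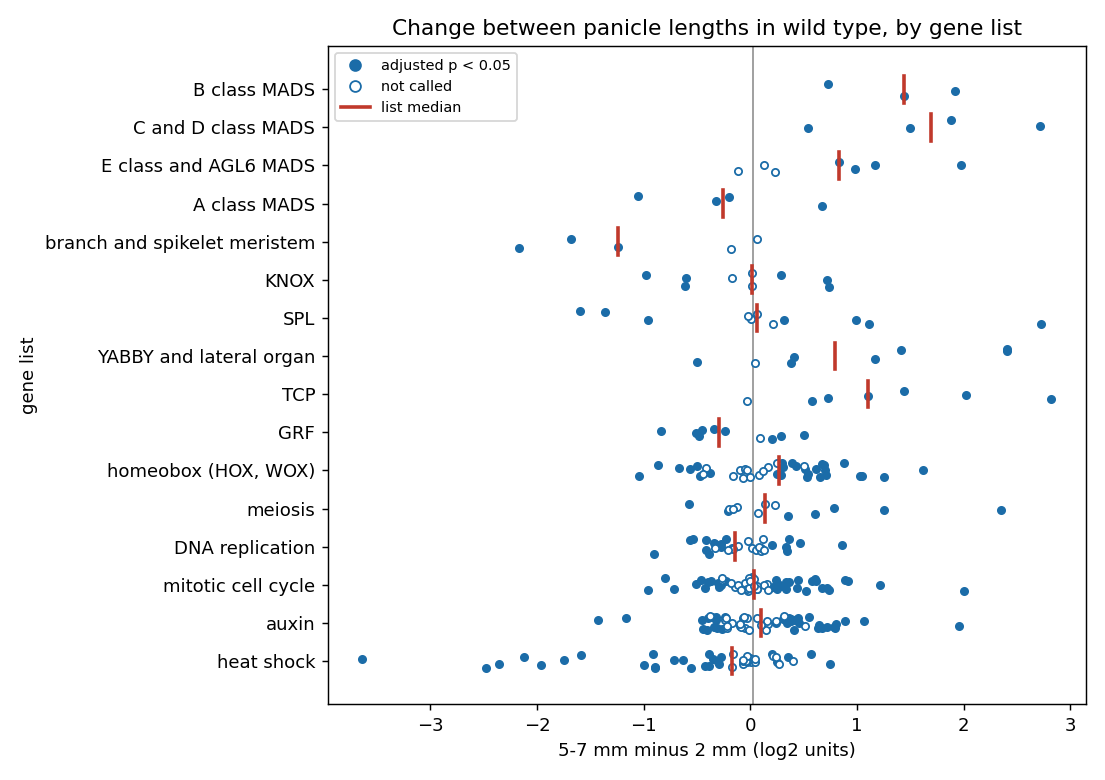
Difference between 5-7 mm and 2 mm (log2 units, horizontal axis) for every measured member of 16 gene lists (rows), filled points where the adjusted p is under 0.05 and open points otherwise, with a bar at each list's median; the grey line marks the median of all genes, 0.02. Most floral B, C, D and E class, TCP and YABBY members lie to the right, 3 of 5 meristem genes to the left, and the remaining lists lie on both sides.

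MEL1 and a few other meiosis genes rose. MEL1, an Argonaute protein gene of germ cells before and in early meiosis, read 8.90, 8.96 and 8.96 at 2 mm and 11.25, 11.24 and 11.38 at 5-7 mm, a rise of 2.35 ± 0.12 (5.09-fold, adjusted p = 2.13e-08) into the brightest 2 percent of probe sets. DMC1, the meiotic recombinase gene, rose 2.39-fold, from 3.75, 3.76 and 3.62 to 5.42, 4.80 and 4.67. PAIR2, needed for chromosome pairing, rose by 0.78 ± 0.064, and MSH5, of the crossover pathway, by 0.61 ± 0.068. Of the 13 meiosis genes, 5 rose, 2 fell and 6 were not called. The shares called were 38.5 percent higher and 15.4 percent lower, against 30.2 and 27.1 percent of all genes. HEI10, a later crossover factor, fell by 0.58 ± 0.080 here and differed by 0.14 with the deposited values, and PAIR1, which acts early in pairing, differed by 0.23 ± 0.095 (adjusted p = 0.0636).

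In the list of anther wall and tapetum (the nursing layer of the anther) 2 of 8 genes rose and 2 fell, and 2 lay in the reporter range at both lengths. bHLH142, which acts early in tapetum differentiation, read 4.34, 4.45 and 4.18 at 2 mm and 6.38, 6.48 and 6.59 at 5-7 mm (4.47-fold, adjusted p = 1.48e-06). Of its partners in the tapetum, EAT1 lay within the reporter range at both lengths, and TDR read 3.60 to 3.86 and then 3.05 to 3.28. GAMYB, a gibberellin-regulated factor of the anther, rose by 0.60 ± 0.068. Among 5 genes of pollen wall and anther lipid supply none rose, and OsC6, OsRAFTIN1 and CYP703A3 differed by 0.02, 0.05 and 0.33 with none called. OsC4, a tapetal lipid transfer protein gene, fell 2.28-fold from 5.02, 5.30 and 4.98 to 3.98, 3.98 and 3.77, a call that ended with the deposited values (-0.39).

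Markers of the tissues a panicle can hold were read as whole lists. The mean level of 5 meiocyte markers, 3 of them called higher, was 6.72 to 6.79 over the arrays at 2 mm and 7.59 to 7.75 at 5-7 mm. That of the carpel markers DL and OsMADS58 went from 6.12 to 6.69 up to 8.37 to 8.62. Both ranges were separate, as were the arrays of the lengths for 69.2 percent of all genes. MEL1, DL and OsMADS58 are the genes already described above, so that these means are not separate support. For 7 tapetum markers the ranges of the mean were 3.83 to 4.02 and 4.01 to 4.10, with 2 of 7 in the reporter range at 2 mm and 3 at 5-7 mm. The mean of the leaf and green bract markers was lower at 5-7 mm, 5.16 to 5.36 against 5.54 to 5.81. Of these 8 markers 3 were called lower and 1 higher, against 27.1 and 30.2 percent of all genes. The means of 4 markers of vascular tissue and secondary wall overlapped, at 4.76 to 4.82 and 4.72 to 4.81. Marker means were not computed under the other scalings, so that the direction of a small difference between them is not secure. The part of tissue shares in the gene results was not tested.

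Genes of the cell cycle changed by small amounts in both directions. Of 30 DNA replication genes 6 rose and 12 fell, none by 2-fold, with a median of -0.14 that became 0.48 with the deposited values. OsPCNA, the replication clamp, stayed bright and fell by 0.57 ± 0.11, which was -0.01 with the deposited values. RPA1C, a single-strand binding subunit, fell from 9.36, 9.29 and 9.41 to 8.44, 8.49 and 8.43 (1.87-fold), while RPA2C rose 1.81-fold. Among 58 mitotic genes 22 rose and 12 fell (37.9 and 20.7 percent). The largest change was in an inhibitor: KRP1, which blocks cyclin-dependent kinases, rose from 2.99, 2.84 and 3.25, within the reporter range, to 5.16, 5.04 and 4.90, at least 2.73-fold (adjusted p = 1.79e-05). The D-type cyclin gene CYCD3-2 fell by 0.96 ± 0.18, from 10.09 to 10.17 down to 8.75 to 9.53, and by -0.33 with the deposited values, which was not called.

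Hormone genes were called in both directions. Of 59 auxin genes 23 rose and 14 fell (39.0 and 23.7 percent, against 30.2 and 27.1 percent of all genes), counts that were 53 and 2 with the deposited values and 11 and 27 with median centring. IAA30, an auxin-induced repressor, rose 3.89-fold from 9.19, 8.74 and 8.93 to 10.84, 10.94 and 10.95 (adjusted p = 3.09e-07), and IAA18 rose 2.10-fold. IAA26 fell 2.70-fold, and GH3-8, an enzyme gene that conjugates auxin, fell 2.25-fold. For cytokinin 9 of 32 rose and 10 fell (28.1 and 31.2 percent), shares near those of all genes. LOGL9, of the family that makes active cytokinin, rose 3.48-fold from 5.39, 5.60 and 5.79 to 7.30, 7.45 and 7.44. The oxidase genes that degrade the hormone split, CKX11 rising 2.20-fold and CKX5 and CKX4 falling 2.51-fold and 2.08-fold, the latter not called with the deposited values (-0.24). OsRR4, a type-A response regulator that cytokinin induces, fell 2.50-fold from 6.23, 5.93 and 6.28 to 4.98, 4.82 and 4.67.

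Of 12 gibberellin genes 4 rose and 1 fell (33.3 and 8.33 percent). The largest change was in EUI1, a deactivating enzyme gene, which rose 2.19-fold from 4.39, 4.37 and 4.35 to 5.43, 5.72 and 5.37. Of 35 jasmonate genes 5 rose and 11 fell (14.3 and 31.4 percent, against 30.2 and 27.1 percent of all genes). With the deposited values 24 rose and 2 fell (68.6 and 5.71 percent, against 81.9 and 4.45 percent). JAZ13, a repressor that the hormone induces, fell 3.15-fold from 6.39, 7.01 and 6.61 to 5.00, 5.22 and 4.81, and AOS2, of the biosynthetic pathway, fell 1.99-fold, with no call from the deposited values (-0.18). In the list for abscisic acid and dehydration, 7 of 23 rose and 10 fell (30.4 and 43.5 percent). EM, a late embryogenesis protein gene that abscisic acid induces in seeds, showed the largest fall of any gene with an informative name: it read 11.76, 11.44 and 11.71 at 2 mm and 6.62, 6.43 and 5.97 at 5-7 mm. That fall of 5.30 ± 0.24 (39.4-fold, adjusted p = 6.86e-09) took it from the 99.2 to the 69.6 percentile of probe sets. Other genes of this list read differently: the dehydrin genes RAB21 and RAB16B differed by -0.08 ± 0.36 and -0.75 ± 0.30, neither called (though the second probe set of RAB21 was called higher), and the kinase gene OsSAPK9 rose 2.39-fold.

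Genes of cell expansion, water and sugar transport split within families. Among 31 expansin and xyloglucan genes 10 rose and 12 fell, 3 each way by 2-fold. The shares called, 32.3 and 38.7 percent, stand against 30.2 and 27.1 percent of all genes. EXPA6, a wall-loosening expansin, rose from 7.57, 7.55 and 7.64 to 9.93, 10.15 and 10.12 (5.57-fold, adjusted p = 1.23e-08), and EXPB3 rose 3.15-fold. EXLA1 fell 3.52-fold and EXPB11 3.45-fold, both without overlap. Of 25 aquaporin genes 5 rose and 11 fell. PIP2-4, of the plasma membrane type, fell from 10.94, 10.67 and 10.91 to 7.87, 7.91 and 7.89 (7.74-fold, adjusted p = 1.54e-08) and PIP2-2 4.99-fold, while PIP1-1 rose 2.38-fold. Of 43 genes of sugar transport and starch 8 rose and 8 fell. OsSWEET15, a sucrose transporter gene known from grain filling, fell 12.5-fold, from 7.60, 7.43 and 7.54 to 3.91, 4.02 and 3.72. CIN1, a cell wall invertase gene, rose 3.30-fold and its relative CIN2 fell 1.99-fold.

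In the photosynthesis list 4 of 22 genes rose, 8 fell and 10 were not called (18.2 percent higher and 36.4 percent lower). The median was -0.02, and 0.52 with the deposited values. GLK2 and GLK1, regulators of chloroplast development, rose 3.34-fold and 2.26-fold, while the light-harvesting gene RCABP89 fell 3.08-fold from 7.08, 6.98 and 6.86 to 5.31, 5.38 and 5.35, and CHLP, an enzyme gene of the chlorophyll side chain, fell 2.23-fold. Of 15 clock and photoperiod genes 5 rose and 4 fell (33.3 and 26.7 percent, near the 30.2 and 27.1 percent of all genes). OsPCL1, of the evening complex, rose 3.97-fold from 7.24, 7.51 and 7.27 to 9.30, 9.28 and 9.41, OsPRR1 rose 1.90-fold, and the morning gene CCA1 fell 3.45-fold from 8.21, 7.81 and 7.98 to 6.19, 6.03 and 6.42, though its second probe set was called the opposite way. Whether time of day differed between the lengths was not tested.

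Heat shock genes held several of the largest falls: 21 of 43 fell and 5 rose (48.8 and 11.6 percent, against 27.1 and 30.2 percent of all genes). By at least 2-fold 7 fell (16.3 percent, against 3.14 percent of all genes). With the deposited values 10 fell and 25 rose (23.3 and 58.1 percent, against 4.45 and 81.9 percent of all genes). HSFB2C, a class B heat stress factor gene, read 8.03, 7.82 and 7.89 at 2 mm and 4.20, 4.23 and 4.40 at 5-7 mm (12.4-fold, adjusted p = 5.66e-10), and its other 2 probe sets were called the same way. HSFC2A fell 5.59-fold, the small heat shock protein gene HSP24.1 fell 4.35-fold, and HSP81-1, an abundant HSP90 gene, fell 3.02-fold from 12.61, 12.54 and 12.54 to 10.93, 11.06 and 10.93. HSP18.6 fell 5.12-fold, but its other 2 probe sets were called 1 each way. The chaperone gene CLPB-M, outside the list, fell 6.44-fold from 7.73, 7.53 and 7.70 to 4.88, 4.99 and 5.01.

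The widest ranges were those of single genes. OsC3H40, a CCCH zinc finger protein gene on chromosome 6, rose most among genes with an informative name, from 4.93, 5.37 and 5.20 to 10.59, 10.56 and 10.67 (5.44 ± 0.098, 43.4-fold, adjusted p = 2.18e-12). Among the 50 CCCH genes 16 rose and 19 fell (32.0 and 38.0 percent, against 30.2 and 27.1 percent of all genes), 3 each way by 2-fold. The mitochondrial gene cob, for apocytochrome b, fell 9.72-fold from 8.47, 8.36 and 8.43 to 5.33, 5.37 and 4.73. PSK4, for a precursor of the growth peptide phytosulfokine, fell 8.26-fold, and the glutaredoxin gene GRXC10 at least 4.17-fold, into the reporter range. Germin-like genes went both ways, GER6 rising 5.92-fold and GER5 falling 5.47-fold. The potassium transporter gene HAK1 rose 4.37-fold, OsbZIP83 rose 5.76-fold, and OsTPP3, of trehalose metabolism, and the hexokinase gene HXK7 fell 5.77-fold and 5.40-fold.

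Genes known only by a locus number or a clone name held the 2 largest falls and the largest rise of all genes. LOC4338334 on chromosome 5 read 9.88, 9.82 and 9.88 at 2 mm and 3.28, 3.48 and 3.00 at 5-7 mm, at least 75.8-fold lower, and LOC4344551 on chromosome 8 was at least 58.7-fold lower. LOC4340976 on chromosome 6 rose 62.6-fold, from 3.98, 4.12 and 4.40 to 10.17, 10.11 and 10.12, and LOC4350996 on chromosome 11 rose at least 20.4-fold. In each of these 4 genes the 3 arrays of a length lay within 0.88 of each other.

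**Figure D3:**
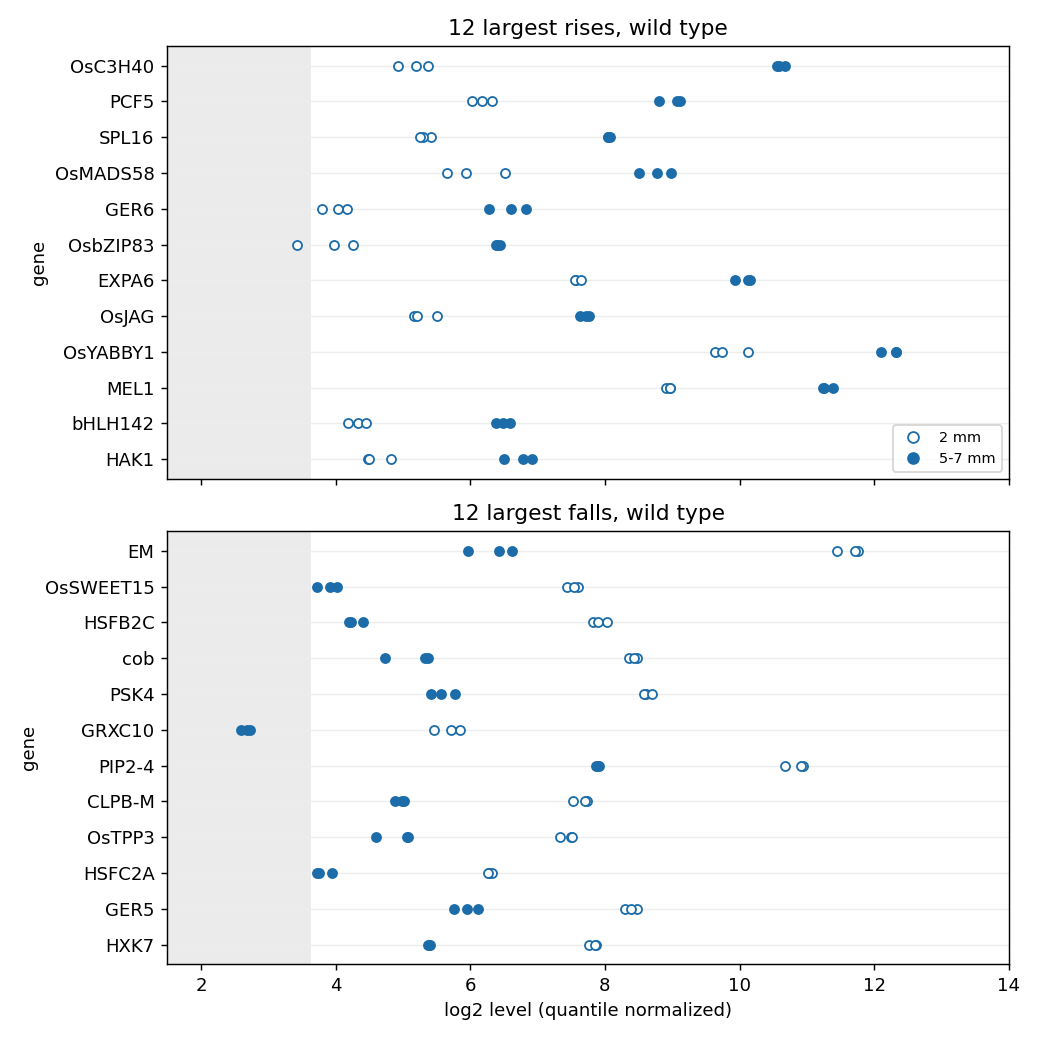
Log2 level (quantile normalized, horizontal axis) in each of the 6 wild-type arrays for the 12 largest rises (upper panel) and 12 largest falls (lower panel) among called genes with an informative name and non-overlapping lengths, open circles for 2 mm and filled circles for 5-7 mm; the shaded band is the range under the upper quartile of the reporter controls. OsC3H40 rises and EM falls by over 5 log2 units, and at 5-7 mm GRXC10 lies in the shaded band.

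The same lengths were compared in the mutant. In osmads1 29468 probe sets passed (51.5 percent), 3212 of them past 2-fold (5.62 percent). Over genes, 388 changed by at least 2-fold in the same direction in both genotypes, 35.1 percent of the 1106 in wild type and 24.4 percent of the 1592 in osmads1. As background, those 1592 genes, of either direction, were out of all 17905. Without the 2-fold limit in osmads1, 757 of the 1106 (68.4 percent) were called the same way there and 149 (13.5 percent) the opposite way. Calls in osmads1 were common: in a fit of the 17905 genes alone 66.6 percent were called there in either direction. The share of all genes called the same way in both genotypes was not counted. The 2 comparisons share no arrays. A test of the difference between the wild-type and the mutant change (the interaction) passed for 12736 probe sets (22.3 percent) and for 6607 genes (36.9 percent). Among the 1106 genes chosen for a 2-fold change in wild type it passed for 729 (65.9 percent), a description, since the choice used the same wild-type arrays.

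Several organ identity genes rose in both genotypes, and the interaction passed for 6 of the 18 floral MADS-box genes, a share close to the 36.9 percent of all genes. For none of the 3 B class genes did the interaction pass (adjusted p = 0.0863 to 0.682), and OsMADS58 rose by 2.72 in wild type and 2.25 in the mutant. OsMADS7 rose by 1.98 in both, and OsYABBY1 by 2.41 and 2.08. MEL1 rose by 2.35 and 2.03. Changes that differed between the genotypes included that of OsMADS13, which rose at least 2.42-fold in wild type and read 2.86 ± 0.14 (SD, n = 3) and 3.28 ± 0.13 in osmads1, within the reporter range at both lengths (interaction adjusted p = 2.03e-05, with its size limited by those dim levels). OsMADS6 rose by 0.83 and 2.01 (interaction -1.18, adjusted p = 3.34e-05). OsMADS1 itself differed by 0.23 in wild type and by -1.49 in the mutant (interaction 1.71, adjusted p = 0.00867, not called with ranks).

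Several meristem genes changed differently in the genotypes. The interaction passed for 4 of the 5 meristem genes, 6 of 9 KNOX genes and 6 of 7 TCP genes, against 36.9 percent of all genes. The genes named here are picked members, LAX1 for its large interaction. Of the KNOX genes only ones that fell in wild type are shown. LAX1 fell by 1.68 in wild type and rose by 1.20 in osmads1, where it read 8.70 ± 0.14 (SD, n = 3) at 2 mm and 9.89 ± 0.25 at 5-7 mm (interaction -2.88, adjusted p = 6.92e-07). RFL fell by 1.24 in wild type and differed by 0.08 in the mutant, and FZP fell at least 3.49-fold in wild type, into the reporter range, and by 1.14 in the mutant, from 5.21 ± 0.24 to 4.07 ± 0.30 (interaction adjusted p = 0.00488). The KNOX genes OSH71, OSH6 and OSH3 fell in wild type by 0.98, 0.61 and 0.60, of which OSH6 and OSH3 were 0.02 and 0.11 with the deposited values. They differed by 0.09, 0.93 and 0.27 in osmads1, and the interaction passed for each, for OSH3 not with spike centring (-0.58). The TCP genes PCF5 and PCF8 rose further in wild type, by 2.82 against 1.24 and by 2.02 against 0.57.

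Some of the largest wild-type changes were smaller in the mutant. The genes of this paragraph were picked from the 6 largest interactions each way among genes that passed. That the interaction passed for each of them was thus fixed by the choice. At 2 mm the 3' to 5' gap of GAPDH was 3.50 in wild type and 2.51 in osmads1, and its part in these differences was not tested. OsC3H40 rose by 5.44 in wild type and 0.57 in osmads1, and OsSWEET15 fell by 3.64 and differed by -0.06. The gene cob fell by 3.28 and differed by 0.39. EM fell by 5.30 and 1.92. Some of these picked genes were not called or rose in wild type and fell in the mutant: RAB16B from 9.48 ± 0.63 to 3.35 ± 0.11, within the reporter range, RAB21 by 4.93, OsNAC6 by 4.63, OsC3H37 by 3.93 and OsWRKY71 by 3.00. OsWRKY71 read 8.52, 7.22 and 8.62 in the longer wild-type panicles, so that its second replicate lay 1.30 below the next. OsPCL1 rose in both, by 1.99 and 5.53, and HSP17.4 fell by 1.96 in wild type and differed by 0.40 in osmads1.

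**Figure D4:**
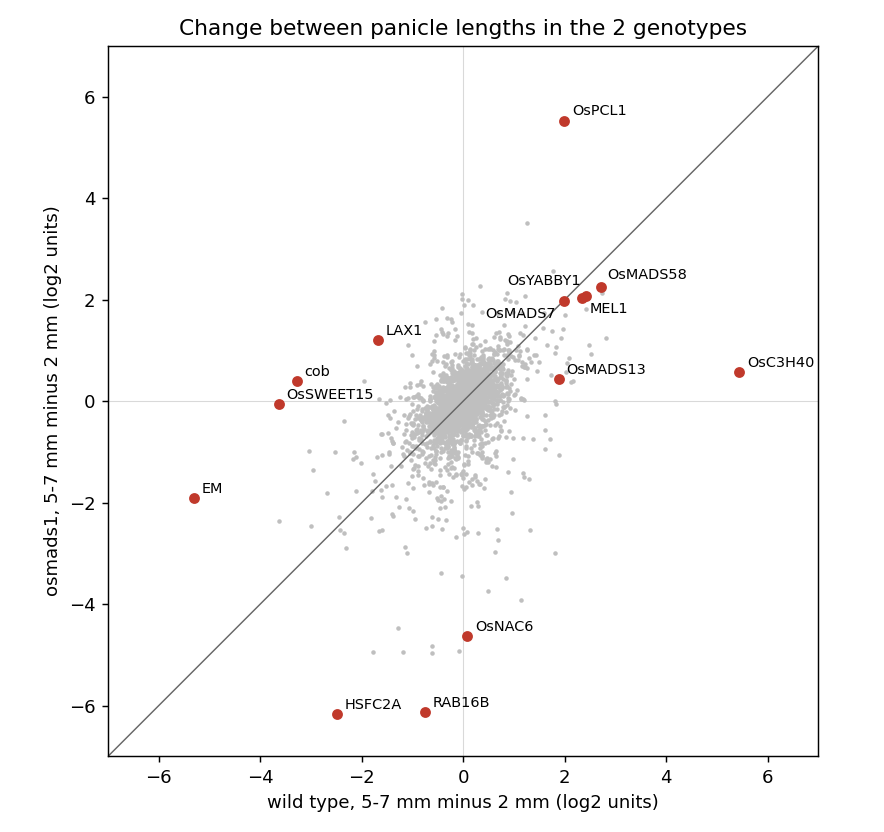
Difference between 5-7 mm and 2 mm in wild type (horizontal axis) and in osmads1 (vertical axis), both in log2 units, for genes with an informative name; grey points are all such genes, coloured points are the genes labelled, and the diagonal marks equal change. MEL1, OsMADS58, OsMADS7 and OsYABBY1 lie near the diagonal, while OsC3H40, LAX1, OsSWEET15, EM, RAB16B and OsPCL1 lie far from it.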

How the data were processed

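Total RNA of whole panicles was labelled as cRNA by a 3' method and hybridised to Affymetrix rice arrays, per the labels' protocols. The deposited values are on a log2 scale, 1 per probe set. The submitters' processing notes list Partek and RMA without a version or settings. RMA gives no detection calls and shrinks differences of dim probe sets. As the deposited lengths are on different scales, the 12 arrays were quantile normalized together, and 187 control probe sets were fitted apart. The other 57194 were fitted in limma 3.58.1 (R 4.3.3) with 4 group means (8 residual and 4.17 prior degrees of freedom). Calls are two-sided, Benjamini-Hochberg adjusted over all of them. The platform annotation tied 22436 probe sets to 1 gene and 95 to more than 1, and left 34663 unnamed. The RefSeq gene table held all of the 22436, and each of the 17905 genes took the probe set with the highest mean. An informative name, held by 2455 genes, is any that is not a bare locus number. In a simulation with 57194 probe sets, 67, 67 and 66 were shifted by 0.5, 1 and 2 log2 units in the longer wild-type panicles. Of these 50.7, 88.1 and 98.5 percent were found, with 7 false calls. In the data 50.3 percent of probe sets passed, so that these shares and false calls do not describe the real comparison.

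The genes, lists and tests were chosen with earlier results of these data known, and lists rest on gene names. Named genes were the 12 largest rises and falls among called genes whose arrays do not overlap, floral MADS-box genes, members of lists of up to 12, the 6 largest changes of longer lists with up to 2 not called, the 6 largest interactions each way and 2 locus genes each way. The text names a subset, picked after the values were seen, with HSP81-1 added to it. The replicate numbers were not used as pairs, and whether they pair the samples was not settled. With 3 arrays a group, their number limits the precision. No promoter search was run, as no sequence table was at hand. Figures were drawn with matplotlib 3.10.9.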

Additional observations from a re-analysis of the deposited data

Results flagged for a closer look

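Each result here is a gene whose change between the lengths differed between wild type and osmads1 by a test of the difference itself, given as the wild-type change minus the osmads1 change in log2 units. Groups of 3 arrays were not searched for single outlying values. Above 0 lay RAB16B (5.38), OsC3H37 (5.07), OsC3H40 (4.87), RAB21 (4.86), OsWRKY71 (4.81), OsNAC6 (4.71), OsMADS1 (1.71), PCF5 (1.58), OsMADS13 (1.46) and PCF8 (1.46). Below 0 lay cob (-3.67), OsSWEET15 (-3.58), OsPCL1 (-3.54), EM (-3.38), LAX1 (-2.88), HSP17.4 (-2.36), OSH6 (-1.54), RFL (-1.32), OsMADS6 (-1.18), OSH71 (-1.06), FZP (-1.03) and OSH3 (-0.87). For OsMADS13, FZP and RAB16B these sizes include group means within the reporter range and are not measured sizes of change. For OsC3H40 the 2 mm panicles read 8.91 ± 0.06 (SD, n = 3) in osmads1 against 4.93 to 5.37 in wild type, while at 5-7 mm the levels were 9.48 ± 0.04 and 10.56 to 10.67. OsPCL1 read 3.85 ± 0.24 in the shorter panicles of osmads1, against 7.24 to 7.51 in wild type.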

How the results depend on the processing

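Calls between the lengths rose from 28765 to 45724 with the deposited values (42143 higher, 3581 lower), were 38779 with median centring (9362 and 29417) and 26323 with spike centring (19446 and 6877). They were 18563 among 28597 probe sets brighter than the median and 11107 among 17905 genes. Of those past 2-fold there were 13632, 6539 and 5672 under the 3 other scalings and 1106 over genes, against 3440. Without single arrays the counts were 24972 to 26346, and 3384 to 3577 past 2-fold. In osmads1 the counts were 45509 with the deposited values, 19039 for brighter probe sets and 11918 over genes, and past 2-fold 13436 with the deposited values, 5448 with median centring and 1592 over genes. The interaction count of 12736 was 6505 with spike centring, 8188 at an adjusted p under 0.01, 8216 over genes (1561 past 2-fold), and 11212 to 11805 without single arrays (3346 to 3539 past 2-fold). The cause was not tested, except that fewer probe sets enter over genes and after the filter.

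Signs turned with the deposited values for OsMADS15 (0.16), OsMADS18 (0.30), OsMADS34 (0.53), OSH1 (0.32), OSH3 (0.11), OSH6 (0.02), FON1 (0.50), HEI10 (0.14) and PCF1 (0.61), and with median centring for OsMADS21 (-0.35) and EAT1 (-0.40). Counts of list members moved by over 1.5 times for 58 of 72 with the deposited values, 39 with median centring, 36 with spike centring and 11 with ranks.

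The replicate numbers were not used as pairs. Deviations of same-numbered wild-type arrays correlated at 0.125, 0.00695 and 0.145, and those of arrays with other numbers at -0.147 to 0.0398. Of the 6 arrays, 4 correlated best with their own number, which does not settle whether the numbers pair the samples. With the replicate block 28637 probe sets passed, 3441 past 2-fold. The block also called FON1 and CYP703A3. Named genes that a filter on dim probe sets removes have no value there, 2-fold has no meaning on ranks, and the planned promoter motif search was not run. For genes near the reporter controls the signal limits the size of a difference.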

Other observations

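Genes of the cell wall and of the surface layer changed in both directions. Of 56 cellulose synthase, COBRA-like and lignin genes 11 rose and 14 fell, only CAD1, a lignin pathway gene, by 2-fold, from 6.37, 6.13 and 6.18 to 7.50, 7.45 and 7.26 (2.26-fold). CESA6, of the primary wall, fell 1.84-fold from 10.77, 10.82 and 10.84 to 9.81, 10.06 and 9.93. In the list of lipid transfer and cuticle genes 2 of 6 rose and 2 fell, and KCS20, of very long chain fatty acid synthesis, fell 2.66-fold from 11.39, 11.57 and 11.41 to 9.91, 10.14 and 10.07.

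Of 6 histone genes 4 rose and none fell, with a median of 0.22 that was -0.18 with median centring, and H2B.10 rose most, by 0.72 ± 0.069. Of 24 ribosomal protein genes 4 rose and 2 fell (16.7 and 8.33 percent), with differences from -0.31 to 0.59. With median centring 1 rose and 17 fell (4.17 and 70.8 percent, against 17.1 and 49.0 percent of all genes). Among stress-related factors 1 of 6 WRKY genes was higher and none lower, 1 was higher and 1 lower of 8 NAC genes, and 3 were higher and 2 lower of 12 DREB and ERF genes, against 30.2 and 27.1 percent of all genes. With the deposited values 6 WRKY, 5 NAC and 10 DREB and ERF genes were higher (100, 62.5 and 83.3 percent, against 81.9 percent of all genes). DREB1A, a cold response factor, rose 2.58-fold from 4.28, 4.10 and 4.44 to 5.72, 6.08 and 5.12.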
